A study of Mus musculus with 8 samples.

Results

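The genes described here are the insulin-like growth factor (IGF) binding proteins Igfbp2 to Igfbp7, the pappalysins Pappa and Pappa2, the receptor Igf1r and the ligand Igf2, 10 of 21938 protein-coding genes. Their chromatin was read from the accessible regions called by ATAC-seq in each gene and in the 20 kb upstream of its start, which gave 70 of the 69399 regions of the genome. The set was selected on these calls, because Igfbp3 and Pappa had regions called in FAK-WT-expressing cells and not in other lines. Counts of such regions are therefore given as a description with no test.

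ATAC-seq uses a transposase that inserts adapters into open DNA. The cells were mouse cutaneous squamous cell carcinoma (SCC) cells, driven by Ha-Ras and raised by DMBA/TPA carcinogenesis in FVB mice of genotype K14CreER FAKflox/flox. Every line thus came from cells with floxed alleles and carries the Cre transgene under the keratin 14 promoter. Exposure to 4-hydroxytamoxifen in culture deleted the gene for focal adhesion kinase (FAK) in all 4 lines. The FAK-/- line has no FAK, and the other 3 lines were made from a FAK-/- clone by retroviral re-expression and selected in hygromycin. They carry wild-type FAK (FAK-WT), FAK impaired in nuclear localization (FAK-nls, with R177A, R178A, R190A, R191A, R216A and R218A) or kinase-deficient FAK (FAK-kd, with K454R). Each line has 2 libraries, and FAK-WT is thus a re-expression line and not the parental tumour cell. Comparing FAK-WT with each of the other lines asks which regions were called in FAK-WT and not in that line. Each state of FAK is held by a single line. The state of FAK thus cannot be told apart from how the lines were derived, transduced and selected.

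IGF1 and IGF2 are secreted growth factors that signal through the receptor tyrosine kinase IGF1R. The IGF-binding proteins hold these ligands outside the cell and control how much of them can reach the receptor. Pappalysins are secreted metalloproteinases that cut particular IGF-binding proteins, IGFBP4 and IGFBP5 among the substrates of PAPP-A and IGFBP5 among those of PAPP-A2, and so release the ligand. IGF signalling is a growth and survival pathway in epithelial tumours, and Igfbp3 is a gene that has been linked to FAK and the transcription factor RUNX1.

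The libraries held 53728 and 39056 peaks in FAK-WT, 43153 and 35256 in FAK-/-, 24402 and 24974 in FAK-nls, and 32961 and 45956 in FAK-kd. The FAK-nls lists were the shortest, and this touches every count of regions not called in FAK-nls. Read depth per region is not in the lists, and a region without a peak may still be accessible below the calling threshold. By the study's sequencing statistics, mapped reads were fewest in the FAK-kd pair, and the share of duplicates was highest in the FAK-nls pair. The part of these differences in the missing calls was not tested. Of 7 keratinocyte promoters, Itga6 was called in 8 libraries, Itgb4 in 3 and Krt14 in 1, while Krt5, Trp63, Sfn and Cdh1 had no call. The 3 fibroblast promoters (Pdgfra, Col1a1 and Col1a2) were called in all 8 libraries. The immune promoters Ptprc and Cd3e were called in 0 libraries. Cdh5 was called in 2 and Pecam1 in 0 for endothelial cells, and Pmel in 8 and Tyr and Mlana in 0 for melanocytes. Most keratinocyte promoters thus had no call, against the epithelial label, and the part of this in the results at the IGF genes was not tested.

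Sequences are shown first for the regions on which the results turn. Each is the central 300 bases of a merged region, read 5′ to 3′ on the plus strand of GRCm38 (mm10), with the letters of a motif in capitals. The motifs were AP-1 (TGACTCA or TGAGTCA), RUNX (TGTGGT), ETS (AGGAAGT or CGGAAGT), TEAD (GGAATG) and the p53 half-site, sought on both strands. RUNX thus also appears as ACCACA, TEAD as CATTCC, and ETS as ACTTCCT or ACTTCCG. Matches to different motifs can share letters at their ends. In Pappa2_6, which is not printed here, the T that ends TGTGGT begins TGACTCA. Regions are numbered from 5′ to 3′ along each gene. Pappa_8 (chr4:65254121-65254420) is shown because it ranked highest in Pappa, Pappa_4 (chr4:65196196-65196495) because it ranked highest of those called in the FAK-WT pair alone, and Pappa_2 (chr4:65174614-65174913) because it holds a pair of AP-1 matches.
Pappa_8: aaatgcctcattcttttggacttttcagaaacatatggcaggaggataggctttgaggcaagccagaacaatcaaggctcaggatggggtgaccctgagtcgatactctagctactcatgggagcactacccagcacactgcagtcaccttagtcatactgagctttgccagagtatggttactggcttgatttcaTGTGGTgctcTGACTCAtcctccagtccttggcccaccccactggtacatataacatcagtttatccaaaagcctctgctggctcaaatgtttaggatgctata
Pappa_4: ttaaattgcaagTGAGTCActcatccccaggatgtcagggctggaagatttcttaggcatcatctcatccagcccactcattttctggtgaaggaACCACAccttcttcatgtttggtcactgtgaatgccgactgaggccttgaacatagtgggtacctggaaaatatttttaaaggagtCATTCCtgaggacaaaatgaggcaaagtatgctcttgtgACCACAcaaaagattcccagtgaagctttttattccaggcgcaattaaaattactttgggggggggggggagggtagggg
Pappa_2: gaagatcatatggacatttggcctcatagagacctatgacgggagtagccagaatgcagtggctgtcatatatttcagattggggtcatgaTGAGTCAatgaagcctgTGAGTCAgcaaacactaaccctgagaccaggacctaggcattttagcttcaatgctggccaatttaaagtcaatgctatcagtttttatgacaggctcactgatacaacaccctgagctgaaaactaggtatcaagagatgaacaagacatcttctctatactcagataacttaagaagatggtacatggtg

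The regions outside Pappa that were called in the FAK-WT pair alone are those of Igfbp3 (chr11:7215889-7216188) and Igfbp7 (chr5:77375026-77375325). The neighbouring Igfbp3_1 (chr11:7226819-7227118), called in all 8 libraries, is set beside them as the region of that gene without a difference in calls.
Igfbp3_2: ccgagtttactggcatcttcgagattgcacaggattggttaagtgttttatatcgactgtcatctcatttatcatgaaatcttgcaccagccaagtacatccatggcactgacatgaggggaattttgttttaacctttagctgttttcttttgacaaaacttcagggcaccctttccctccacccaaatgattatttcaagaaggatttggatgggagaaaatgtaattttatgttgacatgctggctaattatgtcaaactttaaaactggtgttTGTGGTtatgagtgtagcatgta
Igfbp7_2: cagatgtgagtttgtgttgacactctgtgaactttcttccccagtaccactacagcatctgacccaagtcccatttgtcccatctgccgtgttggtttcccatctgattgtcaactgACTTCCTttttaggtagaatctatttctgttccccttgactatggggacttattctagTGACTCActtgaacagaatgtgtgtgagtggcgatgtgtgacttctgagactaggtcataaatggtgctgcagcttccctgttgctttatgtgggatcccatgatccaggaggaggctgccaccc
Igfbp3_1: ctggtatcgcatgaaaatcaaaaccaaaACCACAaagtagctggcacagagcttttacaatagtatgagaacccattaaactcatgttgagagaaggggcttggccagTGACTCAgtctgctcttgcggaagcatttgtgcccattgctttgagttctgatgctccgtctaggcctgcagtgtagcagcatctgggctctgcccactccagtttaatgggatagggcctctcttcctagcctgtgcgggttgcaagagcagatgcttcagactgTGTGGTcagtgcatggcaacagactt

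Of the 70 regions, 55 were intronic, 9 lay upstream, and 6 overlapped an exon or UTR. Calls were most frequent in FAK-WT 1, with 52 of the 70 regions, and FAK-WT 2 had 42, as many as FAK-kd 2. FAK-/- had 36 and 33, FAK-kd 1 had 34, and FAK-nls had 22 and 23. For scale, FAK-WT 1 had 74.3% of these regions and 77.0% of all regions, and the FAK-nls libraries 31.4% and 32.9% against 34.9% and 35.7%. FAK-/- 1 had 51.4% against 61.7% of all regions, whereas FAK-WT 2, with 42 of 70, had 55.9% of all regions, so that these libraries changed places. Without Pappa the FAK-WT libraries had 42 and 32 of 60 regions, against 36 and 33 in FAK-/- and 32 and 39 in FAK-kd, so that FAK-WT overlapped both of these lines. FAK-nls, with 22 and 23, was then still below the other 6 libraries. In the bar plots of calls per gene, Pappa has the widest gap between FAK-WT and the other lines.

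**Figure D1:**
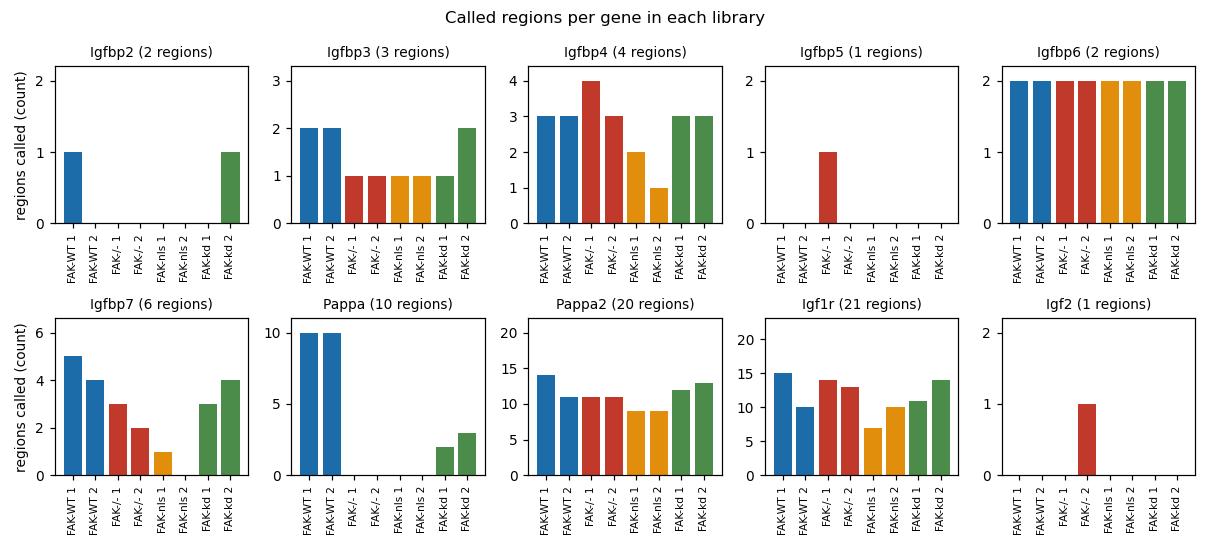
Number of regions called in each library (x axis, FAK-WT in blue, FAK-/- in red, FAK-nls in orange, FAK-kd in green) for the 10 genes, as counts from 0 on the y axis, with the total of merged regions in each title. Pappa has 10 calls in both FAK-WT libraries, 0 in FAK-/- and FAK-nls, and 2 and 3 in FAK-kd, whereas Igfbp6 has 2 in every library.

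In both FAK-WT and neither FAK-/- library, 13 of the 70 regions (18.6%) were called, and 4.89% of all regions of the genome had this pattern. In both FAK-WT and neither FAK-nls library it was 17 (24.3%, genome 15.3%), and in both FAK-WT and neither FAK-kd library 11 (15.7%, genome 4.33%). Regions called in the FAK-WT pair and in no other library numbered 9 (12.9%, genome 1.99%). The opposite pattern, a call in both libraries of a line and in neither FAK-WT library, was found in 0 regions for FAK-/- (genome 1.18%), in 0 for FAK-nls (genome 0.248%) and in 1 for FAK-kd (genome 0.830%). Since these calls chose the genes, the genome shares are printed for scale and nothing is read from the gap. Pappa alone gave 10 of the 13, 10 of the 17, 7 of the 11 and 7 of the 9, and the 60 regions of the other 9 genes gave 3, 7, 4 and 2. Of all 70 regions, 17 were called in all 8 libraries (24.3%, genome 25.8%) and 19 in 1 library (27.1%, genome 28.6%). Without FAK-WT 2, the counts not called in FAK-/- and in FAK-nls became 20 and 27 of 70, while 14203 and 26124 (38.6%) of 67690 regions of the genome had these patterns. With the 24383 strongest peaks of each library both counts became 7 of 44, and the genome shares 3.44% and 4.91%. The count in the FAK-WT pair alone became 12 of 70 without FAK-WT 2, where the genome share was 12.6%. It became 5 of 48 with a −log10 q of at least 3 (genome 2.24%) and 3 of 44 with the strongest peaks (genome 0.829%). The count of the reverse pattern became 8 without FAK-kd 1, 7 without FAK-/- 2, 4 without FAK-WT 1, 3 without FAK-/- 1, and 2 without FAK-nls 2 or FAK-kd 2. The genome shares moved too, that for FAK-kd to 8.23% without FAK-kd 1 and that for FAK-/- to 7.12% without FAK-/- 2.

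**Figure D2:**
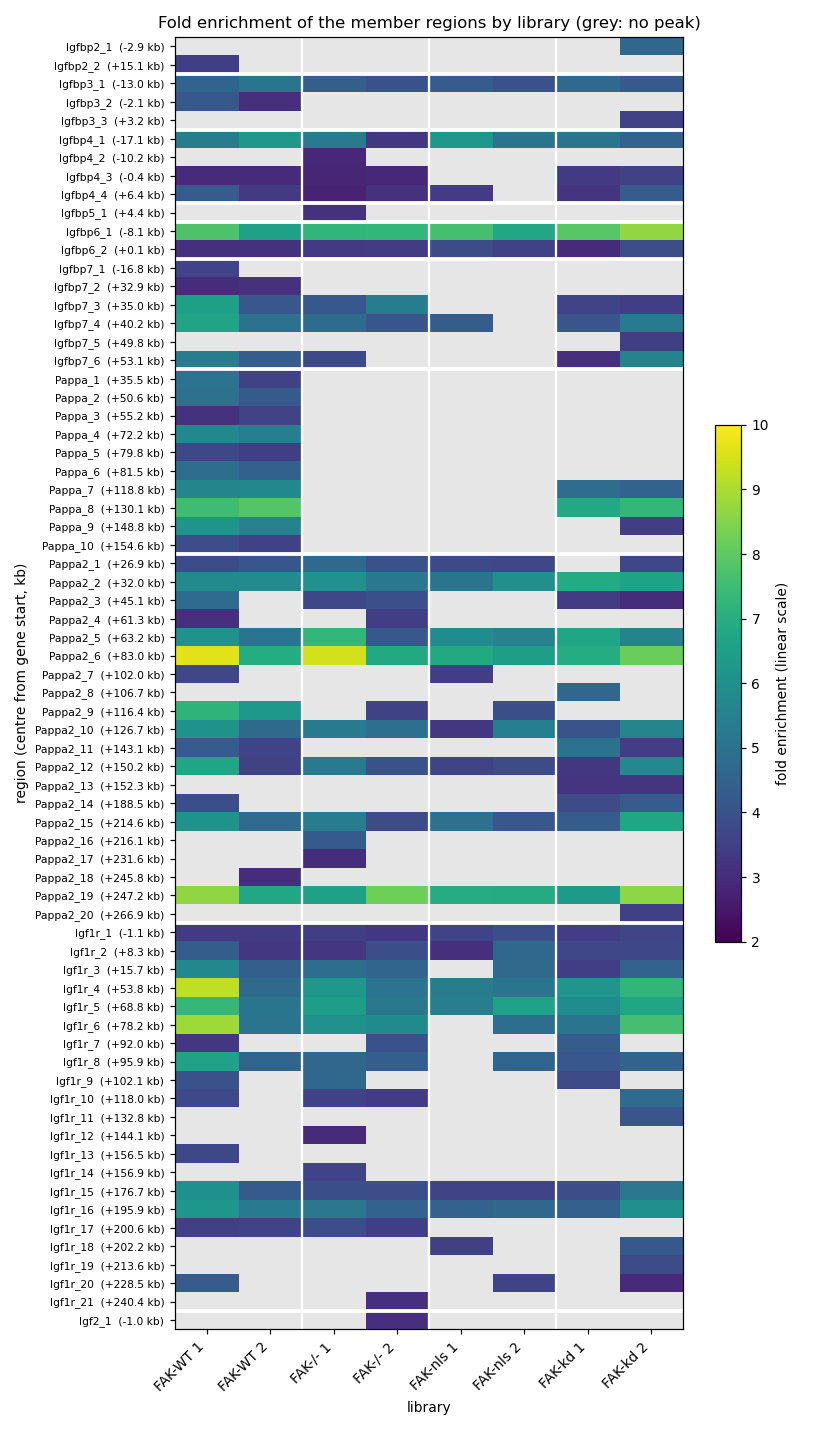
Fold enrichment of the 70 regions (y axis, named by gene and number, with the distance of the centre from the gene start in kb) in each of the 8 libraries (x axis), on a linear colour scale from 2 to 10, with grey where no peak was called. The Pappa rows are coloured in both FAK-WT columns, grey in all FAK-/- and FAK-nls columns, and coloured in FAK-kd for 3 rows, while Pappa2 and Igf1r have 7 and 6 rows that are coloured in all 8 columns and others that are grey in part.

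Pappa (ENSMUSG00000028370.7, chr4:65124174-65357509, plus strand) encodes pregnancy-associated plasma protein A, the metalloproteinase that cleaves IGFBP4. Each FAK-WT library had a peak in all 10 of its regions, FAK-/- and FAK-nls had none, FAK-kd 1 had 2 and FAK-kd 2 had 3. All 10 were intronic, with centres 35521 to 154645 bp from the gene start. No region overlapped the 500 bp before to 2000 bp after the annotated start, in any library. Along the gene there were 6 in introns 2 to 7 and 4 in introns 9 and 10, with 37325 bp between the centres on either side of the gap. The first 6 were called in the FAK-WT pair alone, and the FAK-kd calls were all in the distal group.

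Pappa_8 (chr4:65253857-65254685, intron 9) was the strongest region of the gene. The fold enrichment, which is the ratio of pileup to local background in a peak, was 7.52 and 7.85 in FAK-WT and 6.87 and 7.30 in FAK-kd, with no peak in FAK-/- or FAK-nls. Its ranks by −log10 p, counted from the strongest peak of each list, were 2221 and 767 in FAK-WT and 3228 and 5651 in FAK-kd. The FAK-kd folds were both below the FAK-WT folds, by less than 1. The peaks were 829 and 538 bp long in FAK-WT and 486 and 487 bp long in FAK-kd. The region printed above holds a RUNX and an AP-1 match 4 letters apart.

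Pappa_7 (chr4:65242497-65243482, intron 9), the other region called in all FAK-WT and FAK-kd libraries, had folds of 5.68 and 5.72 in FAK-WT and 4.86 and 4.51 in FAK-kd. Here too the FAK-kd values lay below those of FAK-WT. Its ranks were 11111 and 5947 in FAK-WT, and 12543 and 24417 in FAK-kd. Pappa_9 (chr4:65272397-65273542, intron 10) had folds of 6.14 and 5.54 in FAK-WT and 3.45 in FAK-kd 2, where it stood at rank 40336 of 45956, near the end of the list. It had no peak in FAK-kd 1.

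Among the 7 regions called in the FAK-WT pair alone, Pappa_4 (chr4:65196014-65196678, intron 5) was the strongest, with folds of 5.74 and 5.43 and ranks of 15646 and 10844. It holds matches to AP-1, RUNX and TEAD. Pappa_2 (chr4:65174459-65175070, intron 2) had folds of 5.02 and 4.26 and ranks of 20603 and 20986. Both ranks of Pappa_4 and of Pappa_2 were within the length of the shortest list, 24402 peaks, as were those of Pappa_7, Pappa_8 and Pappa_9.

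The other 5 were weaker in at least 1 FAK-WT library. Pappa_1 (chr4:65159464-65159927, intron 2) had folds of 5.04 and 3.58, and ranks of 24375 and 32793. Pappa_6 (chr4:65205492-65205836, intron 7) had 4.86 and 4.44, at ranks 28110 and 21773. Pappa_10 (chr4:65278244-65279395, intron 10) had 3.88 and 3.59, at ranks 41275 and 32635. Of these 3 regions, Pappa_10 stood lowest in FAK-WT 1, and Pappa_1 and Pappa_6 were nearer the middle of that list. Pappa_5 (chr4:65203721-65204177, intron 6) had 3.73 and 3.48, at ranks 43871 and 34111. Pappa_3 (chr4:65179178-65179530, intron 3) had 3.17 and 3.64, at ranks 48538 and 30115. In FAK-WT 1, the ranks of Pappa_3 and Pappa_5 were beyond the length of both FAK-/- lists, 43153 and 35256 peaks, and in FAK-WT 2 the rank of Pappa_5 was beyond that of FAK-kd 1, 32961, and of both FAK-nls lists.

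The folds at Pappa were 3.17 to 7.52 (median 5.03) in FAK-WT 1 and 3.48 to 7.85 (median 4.35) in FAK-WT 2. Pappa was chosen on the calls of this pair, so nothing is read from their agreement. FAK-WT 1 was higher in 7 of the 10 regions, and the widest difference within the pair was 1.46, at Pappa_1. The plot of fold enrichment along Pappa shows the same 10 positions in both. With the 24383 strongest peaks of each library, 2 of the 7 regions called in the FAK-WT pair alone kept this pattern (Pappa_2 and Pappa_4), and with a −log10 q of at least 3 it was 3 of the 7 (Pappa_2, Pappa_4 and Pappa_6). Pappa_9 joined them under both settings, because its weak FAK-kd 2 peak was then left out.

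**Figure D3:**
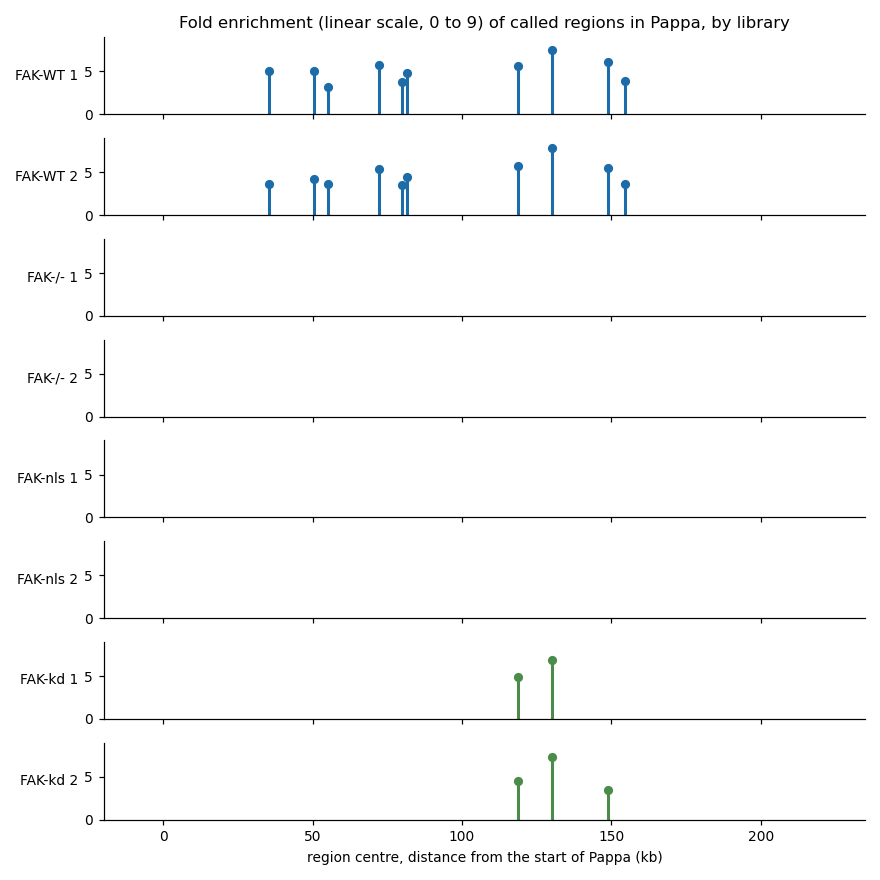
Fold enrichment of the called regions of Pappa (y axis, linear, from 0 to 9) against the distance of the region centre from the gene start in kb (x axis), with 1 panel for each of the 8 libraries. Both FAK-WT panels hold 10 points with medians of 5.03 and 4.35, the FAK-/- and FAK-nls panels hold none, and the FAK-kd panels hold 2 and 3 points, from 118815 bp onward.

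Of 21938 protein-coding genes, 889 (4.05%) had at least 1 region called in the FAK-WT pair alone, and Pappa, Igfbp3 and Igfbp7 are among them. Gm20388 had the most, 8 of 306 regions in a window of 4454.9 kb. Pappa followed with 7 of 10, level with Nrxn3 (7 of 35) and Fgfr2 (7 of 175 in a window of 2980.9 kb). These counts are the values that chose Pappa, and Scn2a, with fewer regions, had the pattern in 3 of 3. Igfbp3 and Igfbp7 are among the 820 genes with 1 such region.

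**Figure D4:**
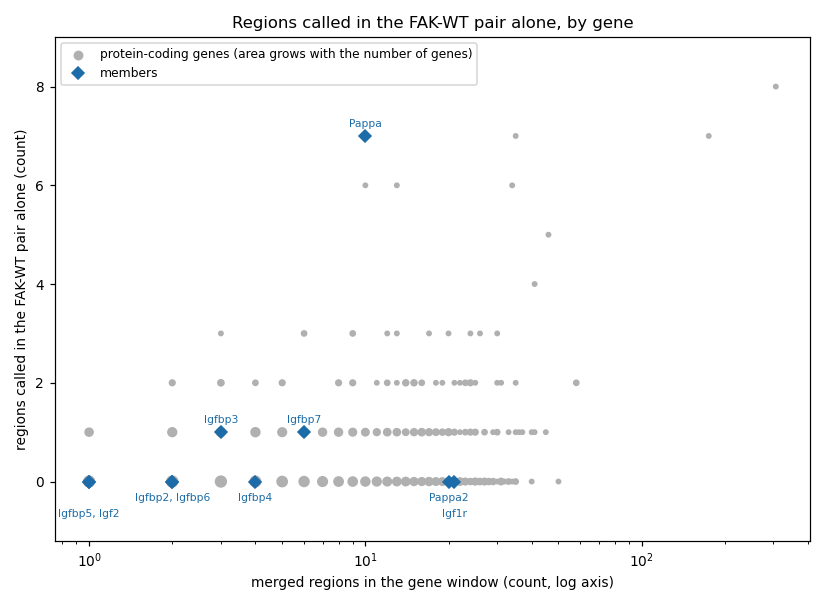
Number of regions called in the FAK-WT pair alone (y axis) against the number of merged regions in the gene window (x axis, log scale) for protein-coding genes with at least 1 region (grey points, larger where more genes share a position), with the genes described here as blue diamonds. Pappa stands at 7 of 10 regions, Igfbp3 at 1 of 3, Igfbp7 at 1 of 6, and the other 7 at 0.

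The related Pappa2 (ENSMUSG00000073530.11, chr1:158711727-158980490, minus strand), which encodes the pappalysin that cleaves IGFBP5, had 20 regions of which 19 were intronic. Of these, 7 were called in all 8 libraries, and Pappa2_6 (chr1:158897086-158897824, intron 2) had the highest fold of any region here, with 9.65 and 6.96 in FAK-WT, 9.45 and 6.86 in FAK-/-, 6.86 and 6.44 in FAK-nls, and 6.95 and 8.17 in FAK-kd. FAK-WT overlapped FAK-/- and FAK-kd at this region, and FAK-nls lay below FAK-WT and FAK-kd. Pappa2 was thus called across the 4 lines where Pappa was not, with 14 and 11 regions in FAK-WT, 11 and 11 in FAK-/-, 9 and 9 in FAK-nls, and 12 and 13 in FAK-kd.

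Of the 20 regions of Pappa2, 1 was called in both FAK-WT and neither FAK-/- library (genome 4.89%). For FAK-nls it was 1 (genome 15.3%) and for FAK-kd 1 (genome 4.33%), and nothing is read from these counts. Pappa2_11 (chr1:158837085-158837655, intron 9), at the annotated start of an internal transcript, had the pattern of Pappa_7 and Pappa_8, with folds of 4.32 and 3.60 in FAK-WT, 4.98 and 3.46 in FAK-kd, and no peak in the other 4 libraries. The FAK-WT and FAK-kd folds overlapped. Pappa2_9 (chr1:158863879-158864382, intron 3) was called in FAK-WT at 7.21 and 6.26, in FAK-/- 2 at 3.54 and in FAK-nls 2 at 3.91, and in neither FAK-kd library. Both FAK-WT folds were above the others. Pappa2_13 (chr1:158828017-158828300, intron 11) was the only region with the reverse pattern, at 3.22 and 3.24 in FAK-kd and with no peak in the other 6 libraries. Its ranks, 31213 of 32961 and 42219 of 45956, were near the end of both lists. The start of Pappa2 had no call in any library.

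Igfbp3 (ENSMUSG00000020427.11, chr11:7206086-7213923, minus strand) encodes the main carrier of IGFs in blood, which also acts in the tissue. Its region centred at −2116 bp from the start, Igfbp3_2 (chr11:7215742-7216337), had peaks in FAK-WT 1 and FAK-WT 2 and in no other library. The folds were 4.20 and 3.11, and the ranks 36494 of 53728 and 37614 of 39056, so that in FAK-WT 2 the peak was among the weakest of the list. The deposited −log10 q was 3.52 in FAK-WT 1 and 1.40 in FAK-WT 2. This sequence holds a single RUNX match and no AP-1, ETS or TEAD match. The region no longer had this pattern with a −log10 q of at least 3 or with the 24383 strongest peaks of each library.

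The other Igfbp3 regions did not have this pattern of calls. Igfbp3_1 (chr11:7226398-7227540), centred at −13046 bp, was called in all 8 libraries, with folds of 4.58 and 5.12 in FAK-WT, 4.42 and 4.02 in FAK-/-, 4.32 and 3.98 in FAK-nls, and 4.72 and 4.24 in FAK-kd. FAK-WT overlapped FAK-kd there and lay above FAK-/- and FAK-nls, with FAK-WT 2 the highest and FAK-WT 1 below FAK-kd 1. Igfbp3_3, in intron 1, was called in FAK-kd 2 alone, at 3.54. No peak lay at the start of Igfbp3 in any library.

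Igfbp7 (ENSMUSG00000036256.13, chr5:77349240-77408041, minus strand) encodes a secreted protein that binds IGFs weakly and is found in the extracellular matrix. Its 6 regions numbered 5 and 4 in FAK-WT, 3 and 2 in FAK-/-, 1 and 0 in FAK-nls, and 3 and 4 in FAK-kd. Igfbp7_2 (chr5:77375002-77375351, intron 1) had peaks in the FAK-WT pair and nowhere else, at folds of 3.05 and 3.15 and ranks of 48970 and 34792, and holds 1 AP-1 and 1 ETS match. Like Igfbp3_2, it no longer had this pattern with a −log10 q of at least 3 or with the 24383 strongest peaks of each library. Igfbp7_3 (chr5:77372771-77373250, intron 1) had folds of 6.55 and 4.18 in FAK-WT, 4.19 and 5.40 in FAK-/- and 3.61 and 3.49 in FAK-kd, with no peak in FAK-nls. FAK-WT overlapped FAK-/- there and lay above FAK-kd. Igfbp7_6 (chr5:77354505-77355402, intron 2) was likewise not called in FAK-nls, and had 5.36 and 4.34 in FAK-WT, 3.81 in FAK-/- 1, and 3.08 and 5.57 in FAK-kd. Igfbp7_4 was called in every library other than FAK-nls 2, and the remaining 2 regions in 1 library each.

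Igfbp4 (ENSMUSG00000017493.12, chr11:99041244-99054392, plus strand) encodes a substrate of PAPP-A. Its promoter region Igfbp4_3 (chr11:99039851-99041804) was called in 6 libraries, at 2.94 and 2.97 in FAK-WT, 2.86 and 2.92 in FAK-/- and 3.37 and 3.59 in FAK-kd, and not in FAK-nls. FAK-kd was the highest pair. These peaks were weak, at ranks 49196 and 35982 in FAK-WT. Igfbp4_4 (chr11:99047075-99048170), at the start of another transcript of the gene, was called in 7 libraries, with 4.29 and 3.37 in FAK-WT, 2.81 and 3.13 in FAK-/-, 3.38 in FAK-nls 1, and 3.20 and 4.32 in FAK-kd. Igfbp4_1, which was called in all 8 libraries, lies at an exon of Top2a and so cannot be assigned to Igfbp4. Igfbp4_2 was called in FAK-/- 1 alone.

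Igfbp6 (ENSMUSG00000023046.6, chr15:102144362-102149511, plus strand) encodes a binding protein with a preference for IGF2. Both of its regions were called in all 8 libraries. The promoter region Igfbp6_2 (chr15:102142982-102145972) had folds of 3.09 and 3.13 in FAK-WT, 3.35 and 3.39 in FAK-/-, 3.85 and 3.57 in FAK-nls, and 2.96 and 3.93 in FAK-kd. FAK-WT lay below FAK-/- and FAK-nls and within the range of FAK-kd. Igfbp6_1, with folds of 6.58 to 8.70, lies at an exon of Spryd3.

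Igfbp2, which encodes another secreted IGF-binding protein, had 2 regions, called in FAK-kd 2 and in FAK-WT 1. Igfbp5, which encodes a substrate of both pappalysins, had 1 region, called in FAK-/- 1 at 3.16. Igf2, the ligand, had 1 region, called in FAK-/- 2 at 3.10, which also overlaps the antisense transcript Igf2os. None of these was called in both libraries of a line. No promoter of Igfbp2, Igfbp5 or Igf2 was called. Over all 10 genes, 19 regions were called in 1 library, with folds of 2.93 to 4.68.

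Igf1r (ENSMUSG00000005533.10, chr7:67952827-68233668, plus strand) encodes the receptor and had 21 regions, 14 of them in intron 2. They numbered 15 and 10 in FAK-WT, 14 and 13 in FAK-/-, 7 and 10 in FAK-nls, and 11 and 14 in FAK-kd. The FAK-WT counts overlapped those of FAK-/- and FAK-kd, and FAK-nls was below both of these lines and met FAK-WT at 10. The promoter region Igf1r_1 (chr7:67950784-67952682) was called in all 8 libraries with a narrow range of folds, 3.35 and 3.35 in FAK-WT, 3.49 and 3.29 in FAK-/-, 3.60 and 3.93 in FAK-nls, and 3.44 and 3.67 in FAK-kd. Igf1r_16 (chr7:68148358-68149151), at an internal start, had 6.20 and 5.32 in FAK-WT, 5.17 and 4.50 in FAK-/-, 4.51 and 4.64 in FAK-nls, and 4.45 and 6.03 in FAK-kd. FAK-WT overlapped FAK-kd and lay above FAK-/- and FAK-nls.

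Igf1r_17 (chr7:68153279-68153652, intron 2) was called in FAK-WT at 3.53 and 3.60 and in FAK-/- at 3.88 and 3.47, and in neither FAK-nls nor FAK-kd library. FAK-WT and FAK-/- overlapped. A further 3 regions of Igf1r were missing in FAK-nls 1 alone, a library with 24402 peaks.

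Peak size could be compared in every library in the 17 regions called in all 8. In 0 of the 17 were both FAK-WT folds above those of the other 6 libraries, and in 0 were both below, while 4.96% of the 17917 such regions of the genome had both above and 185 had both below. With 17 regions these counts are near the genome shares, and nothing is read from them. FAK-WT 1 was higher than FAK-WT 2 in 12 of the 17, and it was the highest of the 8 libraries in 8. Igf1r_4 shows this spread within a line, with 9.24 in FAK-WT 1 and 4.76 in FAK-WT 2, against 5.05 to 7.25 in the other 6 libraries.

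**Figure D5:**
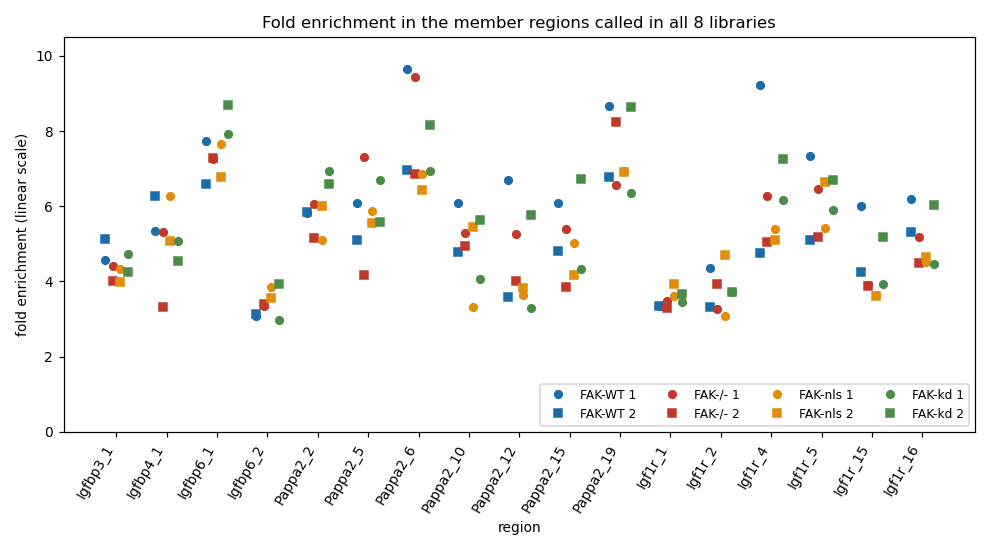
Fold enrichment (y axis, linear, from 0) in each library for the 17 regions called in all 8 libraries (x axis, by region name), with lines by colour and the first and second library of a line as circles and squares. In no region do both FAK-WT points lie above, or both below, those of the other 6 libraries, and at Igf1r_4 they lie on either side of them, at 9.24 and 4.76.

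The letters of the AP-1 motif were present in 5 of the 10 Pappa regions, in 22 of the 70 (31.4%) and in 28.7% of all regions. RUNX was in 4 of 10, 19 of 70 (27.1%) and 25.4% of all. TEAD was in 3 of 10, 11 of 70 (15.7%) and 13191 of the 69399 regions of the genome. ETS was in 0 of 10, 6 of 70 (8.57%) and 10.9%, and the p53 half-site in 0 of 10, 2 of 70 (2.86%) and 2.63%. Regions of the genome called in the FAK-WT pair alone held AP-1 in 38.2%, RUNX in 29.2% and TEAD in 23.8%. They held ETS in 11.2% and the p53 half-site in 3.26%. With 10 regions in 1 gene the Pappa counts are descriptions. Pappa_1 and Pappa_5 held none of the motifs in this window.

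Beside these genes, 14 others were read in the same way: Igf1, Igfbp1, Igfals, Igf2r, Insr, Irs1, Irs2, Stc1, Stc2, Htra1, Grb10, Shc1 and Ide of the wider pathway, and Runx1. They had 69 regions, with 27 called in all 8 libraries (39.1%, genome 25.8%). In both FAK-WT and neither FAK-/- library there were 2 (2.90%, genome 4.89%), in both FAK-WT and neither FAK-nls library 13 (18.8%, genome 15.3%), and in both FAK-WT and neither FAK-kd library 3 (4.35%, genome 4.33%). The reverse was found in 1 region of Insr for FAK-/- (1.45%, genome 1.18%) and in 1 of Igf2r for FAK-kd (1.45%, genome 0.830%). Igf1, the other ligand of IGF1R, had the 1 region of the 69 called in the FAK-WT pair alone (1.45%, genome 1.99%). This region (chr10:87854458-87854768, centred at −3652 bp from the start) had folds of 5.03 and 3.77 and ranks of 21736 and 27410. Runx1, whose product was linked to Igfbp3 in earlier work on FAK, had 17 regions. Of the 17, 0 were called in both FAK-WT and neither FAK-/- library (genome 4.89%). For FAK-nls it was 4 (genome 15.3%) and for FAK-kd 1 (genome 4.33%). Nothing is read from these counts. Igfbp1, Stc1 and Ide had no region.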

How the data were processed

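ATAC-seq was performed on 4 SCC lines with 2 libraries each, which the study calls biological replicates, and lines were taken from the sample labels. The authors processed reads with the bcbio pipeline on mm10 and called peaks in each library separately, without pooling, with MACS2 in broad mode (version 2.1.1 in the submitters' processing notes) at a q-value of 0.05. The deposited lists give, per peak, the pileup as coverage signal, the −log10 of the p-value and of the q-value, and the fold enrichment as a ratio to the local background. No scaling of these values between libraries is stated, so they were described and not tested. Some peaks (0.784% to 3.83% by library) carry a q-value above 0.05. The pileup was not used.

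After removal of 15 to 25 peaks per library on other contigs than chromosomes 1 to 19, X and Y, peaks sharing 1 bp or more across libraries were joined into regions (Python 3.11.15, pandas 2.3.3, numpy 2.4.6). A region was called in a library with at least 1 peak in it, and its values are those of the peak with the highest −log10 p-value. Merging was tested on simulated peaks. Genes were taken from GENCODE vM21 (GRCm38, the build of mm10), intron numbers from the longest transcript, and sequences from GRCm38.p6. Promoters are 500 bp before to 2000 bp after an annotated start. All 10 genes are named. Full values are given for regions with peaks in the FAK-WT pair and none in the pair of some other line, for the reverse, and for promoter regions. The genes, lists and alternatives were chosen with earlier results of these data known. No pair of libraries shared over 0.0361% of identical peaks. Read depth per region is unknown from these lists, so no counting interval is given. The study reports mapped reads for each whole library, and these were not used to adjust the calls. Of the marker promoters, 1 is not reported here.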

Additional observations from a re-analysis of the deposited data

How the results depend on the processing

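No paired analysis was possible because the study numbers its replicates within each line. The counts of calls are a description and come from no test. With a −log10 q of at least 3 there were 48 regions, of which 7 were called in both FAK-WT and neither FAK-/- library (genome 5.77%), 5 in the FAK-WT pair alone (genome 2.24%), 9 in all 8 libraries (9309 of 46452 in the genome) and 0 had the reverse pattern. With the 24383 strongest peaks of each library there were 44 regions, with 7 not called in FAK-/- (genome 3.44%), 7 not in FAK-nls (4.91%), 5 not in FAK-kd (3.10%), 3 in the FAK-WT pair alone (0.829%) and 10 in all 8 (32.7%). With a region called only where 50% covered, 4 were called in all 8 (7278 of 69386 in the genome). With 20 kb on both sides of the gene, the reverse pattern had 2. Without 1 library at a time, the count not called in FAK-/- ranged from 13 to 20, that not in FAK-nls from 17 to 27, and the reverse pattern from 1 to 8. The highest value of each of the first pair came without FAK-WT 2, and that of the reverse pattern without FAK-kd 1. Leaving out a library loosens the rule for its line to a single library. Such counts could therefore rise but hardly fall, and the lower ends of these ranges show no stability. Over all results that answer a comparison, 87 of 107 alternative values stayed within 1.5 times or 1 SD of the main value, as did 401 of 450 values for single genes. Counts of 0 that stayed 0 are among these, and some settings could not alter some counts. The totals are therefore no measure of stability.

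At Pappa, the count of 7 in the FAK-WT pair alone became 4 with a −log10 q of at least 3, of which 3 were among the 7, and 3 with equal numbers of peaks, of which 2 were among the 7. It became 5 where 50% had to be covered. The regions of Igfbp3 and Igfbp7 lost this pattern in both of the first alternatives. The Pappa count of 10 in both FAK-WT and neither FAK-/- library became 6 with a −log10 q of at least 3. It became 5 with equal numbers of peaks and 7 where 50% had to be covered. The unequal length of the lists and the absence of read counts limit every statement about a missing call, and the cause of these shifts was not tested.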

Other observations

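Beyond the windows, Pappa had 3 further regions 20 to 50 kb upstream of its start, and these did not share the pattern of the intronic ones. The region at chr4:65078152-65078797, centred at −45700 bp, was called in 7 libraries, all but FAK-/- 2. Its folds were 6.55 and 8.03 in FAK-WT, 3.17 in FAK-/- 1, 4.59 and 4.19 in FAK-nls, and 5.14 and 4.32 in FAK-kd, so both FAK-WT values were above the other 5. Igfbp3 had 3 regions in the same distance range, of which the pair centred at −24016 and −25474 bp was called in all 8 libraries. Igf1r had 1 region within 20 kb downstream of its end (chr7:68240609-68241757) that was called in both FAK-/- libraries and neither FAK-WT library. FAK-kd 2 also had a peak in it, at a fold of 3.14. These regions were looked at after the main counts were known.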
